A study of Mus musculus with 8 samples.

Results

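The transcripts examined here were those of 10 genes known from the founding and upkeep of the germ line: *Lin28a*, *Lin28b*, *Tfap2a*, *Tfap2c*, *Prdm1*, *Prdm14*, *Nanos3*, *Dppa3*, *Pou5f1* and *Sall4*. They were 10 of 24823 gene entries in the count table, found there by gene identifier, and 9 of them passed the filter on low counts that left 15257 genes to be tested. The set was drawn up because *Lin28b* and *Tfap2a* were among the largest increases in cKO ovaries in these same libraries. Their difference between genotypes is therefore given as a description, with no test. RNA came from whole ovaries of mice on postnatal day 4 (PND4), kept on the C57BL/6 background, in 4 libraries labelled cKO and 4 labelled CON. The cKO mice carried 2 floxed alleles of *Nr5a2* and a Cre allele of *Amhr2* (*Nr5a2* fl/fl with *Amhr2* Cre/+). The CON mice were littermates with the same floxed alleles and no Cre. Effects of the Cre allele itself and of the loss of *Nr5a2* thus cannot be told apart. *Amhr2* drives Cre in cells of the granulosa lineage and in the surface epithelium, and the recombination removes exons 4 and 5 of *Nr5a2*, which encodes the nuclear receptor LRH-1. The comparison asked which transcripts of the neonatal ovary change in abundance when somatic cells lose this receptor. The libraries came from 4 animals per genotype, and litters were not given in the sources used here.

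LIN28A and LIN28B are RNA-binding proteins that seize the precursors of the let-7 microRNAs and keep them from maturing. Mature let-7 in turn represses many mRNAs through short matches in their 3′ untranslated regions (UTRs), the *Lin28* mRNAs among them, so that each holds the other down. In the mouse embryo, signals of the BMP family switch on *Prdm1*, *Prdm14* and *Tfap2c*, the trio of transcription regulators that turns a few epiblast cells into primordial germ cells. *Nanos3* then keeps these cells alive, while *Dppa3*, *Pou5f1* and *Sall4* are carried from the pluripotent state into the germ line and are found again in oocytes. On PND4 most oocytes lie in primordial follicles, arrested in meiotic prophase and enclosed by flat pre-granulosa cells.

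The let-7 family is shown here because *Lin28b* and *Lin28a* both act on it and carry its target sites. The RefSeq records for GRCm38 list 11 mature names at 13 loci, and 10 of these names share the seed GAGGUAG, bases 2 to 8. The exception is let-7j. The following lines give 4 of them 5′ to 3′ with the seed in capitals, of which let-7a lies on the minus strand at chr13:48538239-48538260, let-7g on the plus strand at chr9:106178846-106178867, miR-98 on the plus strand at chrX:151913229-151913250 and let-7j on the plus strand at chr3:140028281-140028304.
let-7a-5p: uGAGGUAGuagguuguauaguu
let-7g-5p: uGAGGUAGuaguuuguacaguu
miR-98-5p: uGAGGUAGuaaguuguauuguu
let-7j: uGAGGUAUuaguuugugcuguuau

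The site that pairs with the common seed, CTACCTC, was searched on the sense strand of the longest annotated 3′ UTR of each gene (GENCODE vM21, GRCm38). All 10 genes have such a UTR and 3 of them held the site. *Lin28b* held 4 sites in 4445 bases, *Lin28a* 2 in 2775 bases and *Sall4* 1 in 1697 bases. Among 14436 tested genes with a UTR, 10.6% held at least 1. The median UTR was 1471.5 bases for the 10 genes and 1170 bases for tested genes, with 0.439 and 0.0734 sites per kb. The sites are printed as windows of 29 bases of the transcript, 5′ to 3′, with the seed match in capitals. All are transcribed from the minus strand, and a match is a description of letters, not of regulation. Those of *Lin28b* lie at chr10:45381013-45381041, chr10:45378639-45378667, chr10:45378467-45378495 and chr10:45377051-45377079, those of *Lin28a* at chr4:134005180-134005208 and chr4:134004542-134004570, and that of *Sall4* at chr2:168748931-168748959, in the order of the lines.
Lin28b site 1: cgggcgggaagtCTACCTCatgcaagcac
Lin28b site 2: acttgttagtaaCTACCTCtgagtttgac
Lin28b site 3: tacagcacatggCTACCTCccagctacca
Lin28b site 4: tgatggcaccgaCTACCTCttcaatcact
Lin28a site 1: cagcctgttgaaCTACCTCatttttgccg
Lin28a site 2: atcgccacaaacCTACCTCactgtgttga
Sall4 site: gctttaatttatCTACCTCaattatcttt

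Between 14649243 and 29066847 read counts per library were assigned to genes. The gene-level count of *Nr5a2* was higher in the libraries labelled cKO, with 27.4 ± 3.27 CPM (counts scaled to library size, SD, n = 4), against 15.5 ± 2.61 CPM in those labelled CON (0.82 on the log2 scale, SE 0.13, edgeR adjusted p = 0.0128, and above 0.05 without CON 2 or CON 3). This count includes exons outside the excised ones, so it does not check the labels. Why it was higher in the libraries labelled cKO was not tested. Below, cKO and CON stand for libraries that carry these labels. Some libraries stood apart within their genotype. Summed smooth muscle markers were at 556 and 849 CPM in cKO 1 and cKO 2, against 1705 and 2284 CPM in cKO 3 and cKO 4 and 2079 to 3009 CPM in CON. Summed neutrophil markers were at 13.6 to 21.9 CPM in cKO, against 105 and 165 CPM in CON 1 and CON 3 and 18.8 and 21.5 CPM in CON 2 and CON 4. The same CON 1 and CON 3 held the highest sums of red blood cell markers, and values without either pair are given below where they bear on a gene. All 15 oocyte markers were detected in every library, and their sum was 1917 to 2870 CPM in cKO, against 1390 to 2084 CPM in CON.

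Among the 9 tested transcripts, *Lin28b*, *Tfap2a* and *Sall4* were higher in every cKO library than in any CON library, by 2.90-fold, 2.85-fold and 1.83-fold. *Tfap2c* and *Prdm1* had the only negative fold changes, and the other 4, *Lin28a*, *Nanos3*, *Dppa3* and *Pou5f1*, had positive ones with libraries that overlapped. *Prdm14* was not detected. Complete separation with cKO above CON held for 3 of these 9, and for 8.93% of all tested genes, and with cKO below CON for 0 of the 9 and 9.10% of all. Since the genes were chosen on this contrast, nothing is read from these counts. *Lin28b* and *Tfap2a* also passed the filter on low counts through their cKO libraries, and both had no value when at least 10 counts were required in all libraries. In whole ovaries, more cells of a type and more RNA per cell cannot be told apart.

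**Figure D1:**
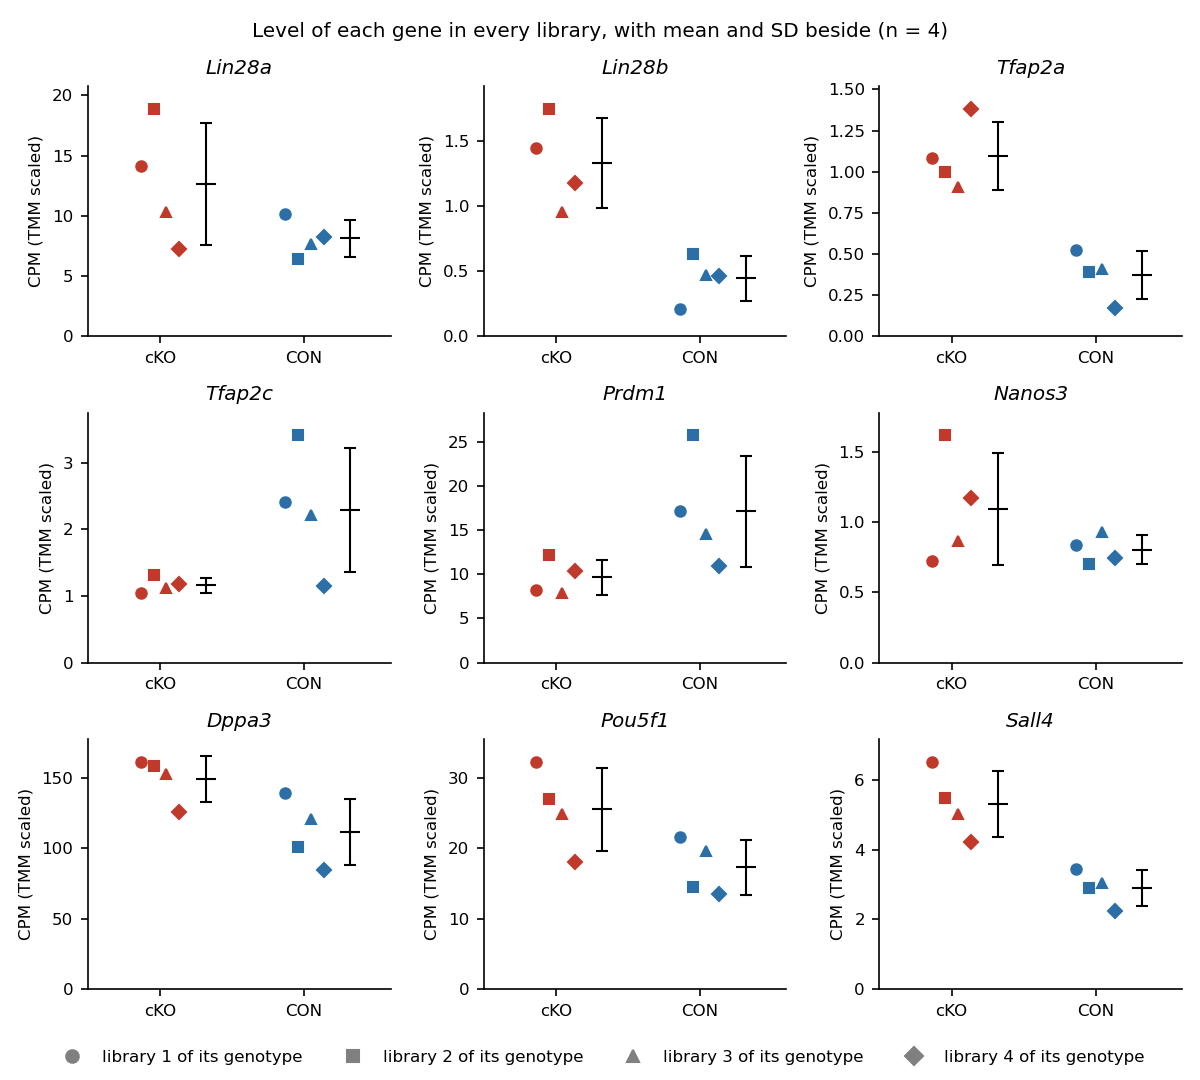
Level of each of the 9 detected genes, in CPM scaled by TMM (vertical axis, from 0), in the 4 libraries labelled cKO (left) and the 4 labelled CON (right), with the mean and SD as bars. All cKO points of *Lin28b*, *Tfap2a* and *Sall4* lie above all CON points, and CON 4 alone brings *Tfap2c* and *Prdm1* into overlap.

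*Lin28b* (chr10:45376617-45486314), which blocks let-7 maturation, was covered by few counts. It had 1.45, 1.75, 0.950 and 1.18 CPM in cKO 1 to cKO 4, against 0.209, 0.633, 0.467 and 0.458 CPM in CON 1 to CON 4. The lowest cKO library lay above the highest CON library, and the lowest value of all was that of CON 1. These values rest on 36, 28, 22 and 17 counts in cKO and 4, 18, 8 and 8 counts in CON, so that counting error takes a visible part in each. The log2 fold change was 1.53 (SE 0.35). It was 1.20 without cKO 1 and cKO 2, and 1.24 without CON 1 and CON 3.

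*Lin28a* (chr4:134003330-134019196), the paralogue needed for primordial germ cells in the mouse, varied more between cKO libraries. It had 14.1, 18.9, 10.3 and 7.19 CPM in cKO, against 10.1, 6.44, 7.65 and 8.19 CPM in CON. The genotypes overlapped, with cKO 4 below 3 of the 4 CON libraries. The log2 fold change was 0.65 (SE 0.27). It was 0.39 without cKO 2 and 0.13 without cKO 1 and cKO 2, the libraries low in smooth muscle markers. The difference in *Lin28a* thus depended mostly on those libraries. They also held its highest values, so leaving them out had to lower the difference, and a part of tissue makeup was not tested. The difference in *Lin28b* fell from 1.53 to 1.20 without cKO 1 and cKO 2. Since *Lin28b* was chosen for its increase in these libraries, nothing is read from what remained.

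*Tfap2a* (chr13:40713802-40738238) encodes AP-2 alpha, a factor known for its roles in the neural crest, the face and the epidermis. It had 1.09, 0.997, 0.907 and 1.38 CPM in cKO, against 0.523, 0.387, 0.409 and 0.172 CPM in CON. Every cKO value was above every CON value, and CON 4 was the lowest. The counts were 27, 16, 21 and 20 in cKO and 10, 11, 7 and 3 in CON, and the log2 fold change was 1.51 (SE 0.33). Without CON 4 it was 1.30, without cKO 1 and cKO 2 1.56, and without CON 1 and CON 3 1.86. An annotated transcript that overlaps *Tfap2a*, *Gm26688*, had 1 count over all libraries.

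*Tfap2c* (chr2:172545678-172558622) encodes AP-2 gamma, which with PRDM1 and PRDM14 specifies mouse primordial germ cells. In contrast to *Tfap2a*, it had 1.04, 1.31, 1.12 and 1.18 CPM in cKO, against 2.40, 3.41, 2.22 and 1.15 CPM in CON. The cKO libraries were close to each other (SD 0.111), the CON libraries were not (SD 0.929), and CON 4 sat within the cKO range. The log2 fold change was -1.01 (SE 0.31), with -0.73 without CON 2 and -1.22 without CON 4.

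*Prdm1* (chr10:44437174-44528558) encodes BLIMP1, the repressor that silences the somatic programme in germ cell precursors and that also acts in lymphocytes, epidermis and other tissues. It had 8.20, 12.2, 7.86 and 10.4 CPM in cKO, against 17.2, 25.7, 14.6 and 10.9 CPM in CON. CON 4 again lay closest to cKO, here below cKO 2 but above the other cKO libraries. The log2 fold change was -0.85 (SE 0.25), and it lay between -1.01 and -0.57 with 1 library left out. Summed lymphocyte markers were at 3.18 to 4.05 CPM in cKO, against 3.48 to 11.9 CPM in CON, and summed epithelial markers at 1148 to 2143 CPM, against 1540 to 1821 CPM. Their part in the values of *Prdm1* and *Tfap2c* was not tested.

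*Prdm14* (chr1:13113428-13127163), the third of the trio, had 0 counts in all 8 libraries. By the limit of 3 counts that a count of 0 allows, this leaves room for up to 0.0382 CPM over the cKO libraries together and 0.0365 CPM over the CON libraries together, by counting error alone. *Nanos3* (chr8:84173733-84176552), an RNA-binding protein that protects migrating germ cells from apoptosis, had 0.723, 1.62, 0.864 and 1.18 CPM in cKO, against 0.836, 0.704, 0.935 and 0.745 CPM in CON. The lowest value of all was in CON 2 and the next lowest in cKO 1, so the genotypes overlapped. The log2 fold change was 0.42 (SE 0.31), and 0.17 without cKO 2.

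*Dppa3*, *Pou5f1* and *Sall4* followed each other from library to library. *Dppa3* (chr6:122626424-122630271), also called *Stella*, protects the maternal genome of the zygote from loss of methylation and was the most abundant of the 10 per length of exon. It had 161, 158, 153 and 126 CPM in cKO, against 139, 101, 121 and 85.0 CPM in CON. Only cKO 4 fell below the highest CON library, and the log2 fold change was 0.42 (SE 0.14). Without CON 1 and CON 3 it was 0.68.

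*Pou5f1* (chr17:35506032-35510777) encodes OCT4, the pluripotency factor that germ cells retain. It had 32.2, 27.0, 24.9 and 18.0 CPM in cKO, against 21.6, 14.5, 19.6 and 13.5 CPM in CON. Here too cKO 4 alone lay within the CON range, and the log2 fold change was 0.57 (SE 0.20). It was 0.33 without cKO 1 and cKO 2, and 0.87 without CON 1 and CON 3. *Sall4* (chr2:168748332-168767201), a zinc finger factor of stem cells and oocytes, had 6.51, 5.49, 5.01 and 4.22 CPM in cKO, against 3.45, 2.89, 3.04 and 2.23 CPM in CON. The genotypes did not overlap, and the log2 fold change was 0.87 (SE 0.19). In both genotypes library 1 was the highest and library 4 the lowest for *Dppa3*, *Pou5f1* and *Sall4*, although the numbers pair no samples.

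Divided by the length of their exons, the 9 transcripts spanned 3 orders of magnitude in both genotypes. *Dppa3* led with 168 ± 18.2 CPM per kb in cKO and 125 ± 26.4 in CON (SD, n = 4), followed by *Pou5f1* with 11.4 ± 2.61 and 7.69 ± 1.74. At the other end stood *Tfap2a* with 0.223 ± 0.0421 in cKO and 0.0760 ± 0.0299 in CON, and *Lin28b* with 0.147 ± 0.0379 and 0.0488 ± 0.0193. The ranges of *Tfap2a* and *Lin28b* overlapped within each genotype, so these neighbours were not set apart by their spread. The same was true of *Lin28a* and *Prdm1*, which changed places: *Lin28a* was the third and *Prdm1* the fourth in cKO (3.16 ± 1.26 and 1.73 ± 0.360), and in CON the order was *Prdm1* before *Lin28a* (3.07 ± 1.13 and 2.03 ± 0.386). Ranges of neighbours that did not overlap in cKO were those of *Dppa3* and *Pou5f1*, *Pou5f1* and *Lin28a*, *Sall4* and *Tfap2c*, and *Tfap2c* and *Tfap2a*. The biological coefficient of variation of the set, the spread left after counting error, lay between 0.145 for *Dppa3* and 0.275 for *Tfap2c*, which placed the 9 transcripts between the 71.6 and the 93.4 percentile of all tested genes. Genes of like abundance were not compared. In mean CPM *Tfap2a* was at the 2.33 and *Tfap2c* at the 9.18 percentile, with *Lin28b* and *Nanos3* between them. A wide spread is therefore not read as a trait of the set.

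The oocyte markers were themselves higher in cKO, with positive fold changes in 15 of 15 and a median log2 fold change of 0.56, beside a median of -0.000467 over all tested genes. Of these, 3 of 15 were called, the germ cell RNA helicase *Ddx4* (0.62, SE 0.13, edgeR adjusted p = 0.0326), the RNA-binding protein *Dazl* (0.74, SE 0.18, 0.0432) and the oocyte growth factor *Bmp15* (1.01, SE 0.25, 0.0434). All 3 calls were lost (adjusted p from 0.0521 to 0.131) when cKO 1, cKO 2, cKO 3, CON 2, CON 3 or CON 4 was left out, and that of *Dazl* also without the count filter (0.0562), while DESeq2 called 4 of the 15 and limma-voom 6. *Gdf9*, the partner of *Bmp15* as a growth factor, had 0.72 (SE 0.19, 0.0550). Each gene of the set was therefore also expressed per 1000 CPM of the summed oocyte markers, as a ratio of levels with no test. Abundant markers weigh most in this sum, with *Padi6* at 737 CPM on average over all libraries, *Zp2* at 322 CPM and *Nlrp5* at 263 CPM. The log2 fold change was 0.44 for *Padi6* and 1.01 for *Bmp15*, so a ratio depends on the markers in the sum. On this scale *Dppa3* was at 64.2 ± 12.4 in cKO, against 65.9 ± 4.06 in CON (SD, n = 4), a log2 ratio of -0.04. *Pou5f1* was at 10.9 ± 2.48, against 10.2 ± 0.959, and *Nanos3* at 0.494 ± 0.262, against 0.484 ± 0.0701. *Lin28a* was at 5.54 ± 2.95 in cKO and 4.84 ± 0.762 in CON. Thus these 4 transcripts differed between genotypes by less than their spread on this scale. In CPM, before the division, *Dppa3* and *Pou5f1* differed by more than the SD of either genotype. *Lin28a* and *Nanos3* already differed by less than the SD of cKO in CPM, so for them the small difference is not read as an effect of the division.

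The remaining 5 kept a difference on this scale. *Tfap2a* was at 0.378, 0.520, 0.362 and 0.629 in cKO, against 0.251, 0.248, 0.240 and 0.124 in CON, a log2 ratio of 1.13 without overlap. *Lin28b* had a log2 ratio of 1.07, with 0.582 ± 0.229 in cKO and 0.278 ± 0.130 in CON, but cKO 3 (0.379) fell below CON 2 (0.406). *Sall4* was at 2.26 ± 0.427, against 1.72 ± 0.112, a log2 ratio of 0.39. Its genotypes did not overlap but lay close, with cKO 4 at 1.92 and CON 2 at 1.85. *Tfap2c* and *Prdm1* moved further apart. *Tfap2c* was at 0.507 ± 0.136 in cKO, against 1.37 ± 0.582 in CON (log2 ratio -1.43). *Prdm1* was at 4.26 ± 1.61, against 10.3 ± 4.14 (log2 ratio -1.27), now without overlap for either. The marker sum was higher in cKO on average, so the division alone lowers the cKO values of a gene that does not follow it. The share of all tested genes without overlap on this scale was not computed, so nothing is read from the separation of any gene here. Which cells of the ovary held these transcripts was not measured.

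**Figure D2:**
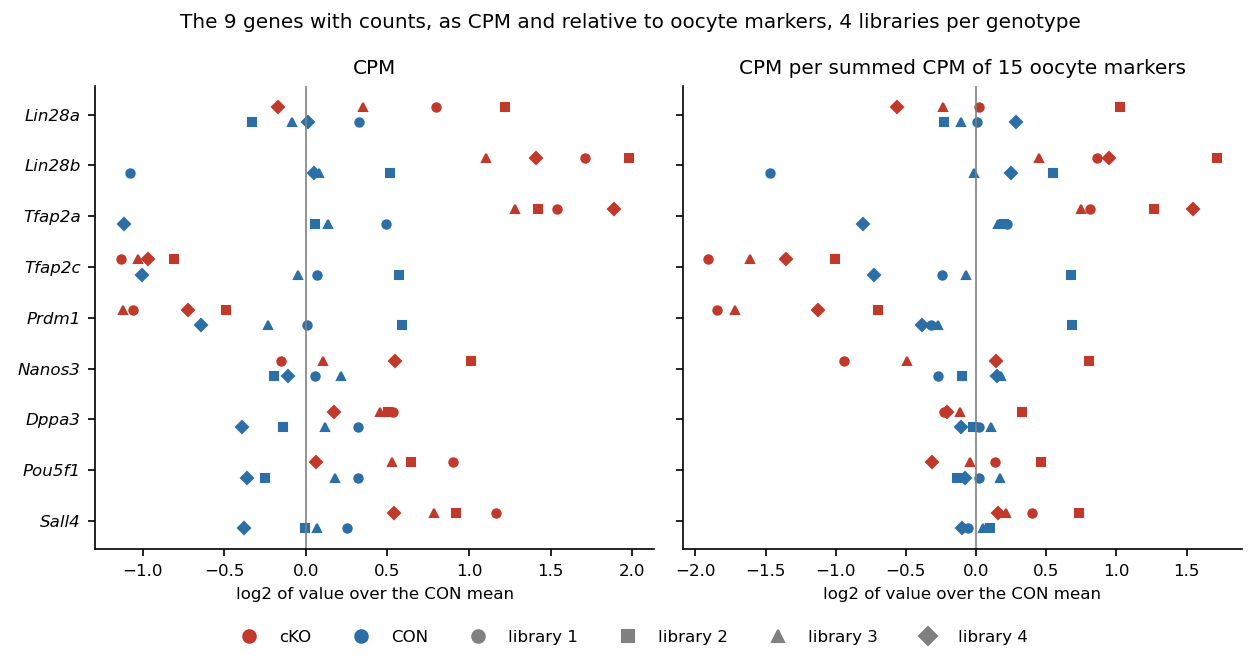
Each library as the log2 of its value over the CON mean, for CPM (left) and for CPM divided by the summed CPM of 15 oocyte markers (right), with cKO in red above CON in blue and 1 symbol per library. In the right panel *Dppa3* and *Pou5f1* gather around 0, and the cKO points of *Nanos3* spread widely on both sides of it. *Tfap2a* stays above and *Tfap2c* and *Prdm1* stay below their CON libraries.

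Within genotypes, some genes of the set varied together. Deviations of log2 CPM from the genotype mean over the 8 libraries correlated with a Pearson r of 0.92 (Spearman rho 0.90) between *Dppa3* and *Pou5f1*, of 0.90 (0.90) between *Dppa3* and *Sall4* and of 0.93 (0.95) between *Pou5f1* and *Sall4*. The same 3 had an r of 0.84, 0.79 and 0.81 with the mean deviation of the oocyte markers (rho 0.76, 0.74 and 0.74). Other marker lists came near these values or passed them in size, in either direction. *Dppa3* had an r of 0.79 with red blood cell markers and 0.79 with neutrophil markers (rho 0.90 and 0.88), *Pou5f1* -0.82 with endothelium (rho -0.83) and *Sall4* -0.76 with macrophages (rho -0.74). *Tfap2c* and *Prdm1* went together with an r of 0.90 (rho 0.90) and had an r of 0.27 and -0.02 with the oocyte markers. Other genes were linked to these groups, so the groups were not sharply set apart. *Lin28a* had an r of 0.71 with *Pou5f1* (rho 0.67). *Tfap2a* had an r of 0.71 with *Tfap2c* (rho 0.48) and 0.61 with the oocyte markers (rho 0.48). *Lin28b* had an r of -0.63 with the oocyte markers (rho -0.38) and 0.05 with *Lin28a*, and *Tfap2a* an r of -0.31 with *Lin28b*. The pair with the largest fold changes thus did not vary together among libraries of 1 genotype. These values describe 8 libraries that share depth and tissue makeup from gene to gene, and in *Lin28b* and *Tfap2a* counting error is large.

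*Lin28a* ran opposite to some somatic markers within genotypes, with an r of -0.92 for stroma (rho -0.93), -0.86 for smooth muscle (-0.86) and -0.82 for endothelium (-0.88). The r was -0.72 for macrophages (rho -0.81) and -0.51 for nerve and neural crest (-0.48). Its r was positive with pre-granulosa markers (0.45, rho 0.52), with epithelial markers (0.56, rho 0.50) and with the oocyte markers (0.29, rho 0.14). Neutrophil (0.33, rho 0.57), lymphocyte (0.32, rho 0.48) and red blood cell markers (0.30, rho 0.48) also had a positive r. Summed stroma markers were at 26050 to 36393 CPM in cKO, against 27070 to 32163 CPM in CON, and their part in the level of *Lin28a* was not tested.

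**Figure D3:**
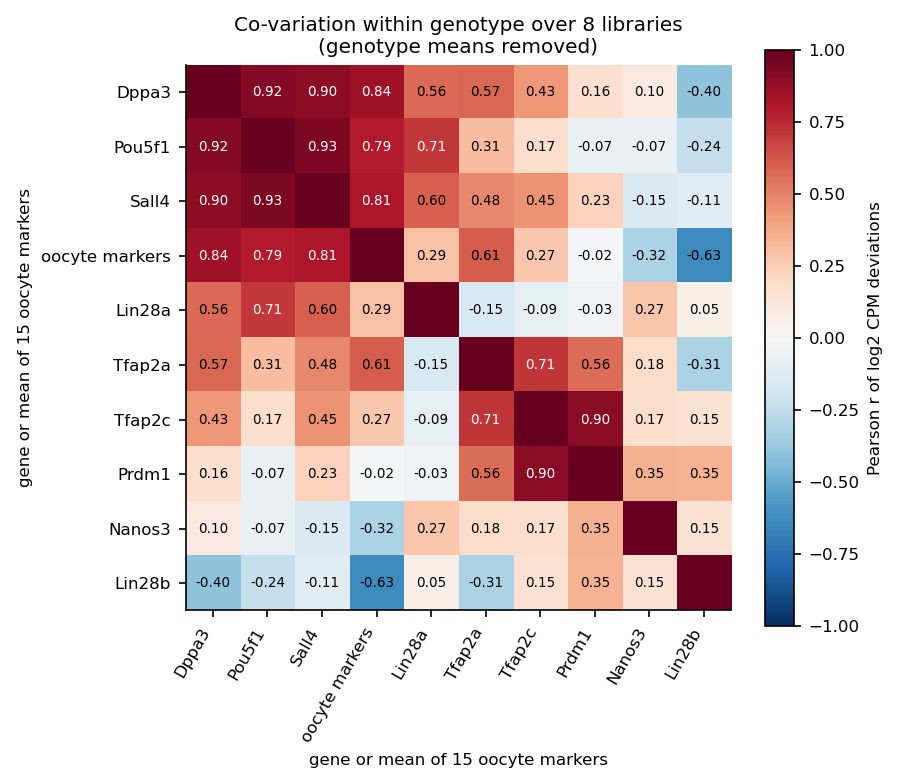
Pearson r of within-genotype deviations of log2 CPM over 8 libraries (4 cKO, 4 CON) for the 9 detected genes and the mean of 15 oocyte markers, from -1 (blue) to 1 (red). *Dppa3*, *Pou5f1*, *Sall4* and the oocyte markers form a block with r between 0.79 and 0.93, and *Tfap2c* and *Prdm1* a pair with 0.90.

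The genes whose within-genotype pattern was most like that of a member were sought among all tested genes with a mean of at least 1 CPM. For *Lin28b*, among 14540 genes, these were *Tubgcp3* (r = 0.99), *Cdc27* (0.97), *Hhat* (0.95), *Zfp511* (0.94) and *Cacnb3* (0.94), of which *Tubgcp3* belongs to the gamma-tubulin complex and *Cdc27* to the anaphase-promoting complex. For *Tfap2a* they were *Bard1* (1.00), the partner of BRCA1, followed by *Ikzf5* (0.96), *Nppc* (0.96), *Dennd4a* (0.95) and *Tarsl2* (0.95). For *Lin28a* they were *Amhr2* (0.98), *Prkcd* (0.98), *Chka* (0.98), *Sybu* (0.97) and *Espn* (0.97). *Amhr2* is the gene whose regulatory sequence drives Cre, and its own log2 fold change was -0.59 (SE 0.16, edgeR adjusted p = 0.0539), opposite in sign to that of *Lin28a*. Its adjusted p was 0.00394 with DESeq2, 0.0403 with limma-voom and 0.0770 with edgeR without the count filter. The r values given here are the highest of all candidate values, each over 8 libraries that share depth and tissue makeup, and describe likeness only. Ranked by Spearman's rho instead, only 1 of the 5 stayed for *Lin28b*, and 2 of 5 for *Tfap2a* and for *Lin28a*. Over 8 libraries values of rho were often tied, and all 5 genes taken for *Lin28a* had a rho of 1. Tied genes were taken in the order of their gene identifiers, so nothing is read from these overlaps.

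The genes around the set were grouped in 6 lists by pathway. Genes were called at an edgeR adjusted p under 0.05 over all genes and a fold change of at least 1.5. Over the 96 list genes that were tested, 4 were called higher and 3 lower in cKO, where 1.41% of all tested genes were called, 0.891% higher and 0.518% lower. The 4 higher calls became 0 without cKO 2 or CON 4 (22 and 17 genes with a higher value had an unadjusted edgeR p under 0.05), 1 without cKO 3 and 10 without CON 1. Every call in these lists was lost, with adjusted p above 0.05, when CON 2 or CON 3 was left out, where edgeR called 0 genes of the whole table (before adjustment, p was under 0.05 for 1749 genes with a higher and 1565 with a lower value in cKO without CON 2, and for 1771 and 1488 without CON 3).

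The first list held the machinery of let-7 and of microRNA silencing. Of its 21 genes, 0 were called with edgeR, DESeq2 or limma-voom, while 6 with a higher and 1 with a lower value in cKO had an unadjusted edgeR p under 0.05. The median log2 fold change was 0.08 and 15 of 21 were positive. The RNA helicase *Ddx17* (0.19, SE 0.05, edgeR adjusted p = 0.0406) and the nuclear processing enzyme *Drosha* (0.24, SE 0.06, 0.0475) had an adjusted p under 0.05 with a fold change well under 1.5. *Dicer1*, which cuts the hairpin precursor, had 0.38 (SE 0.11, 0.0679), and the Argonaute *Ago1* 0.18 (SE 0.06, 0.0846). Mature let-7 was not measured, since libraries were made from mRNA.

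Of 26 mRNAs known as let-7 targets, 25 were tested, 1 was called higher and 1 lower, and their median log2 fold change was 0.07. The site CTACCTC was present in 72.0% of the 25, compared with the 10.6% given above for tested genes. Their UTRs were longer, with a median of 3020 bases, against 1170 bases for tested genes. Per kb they held 0.426 sites, against 0.0734. Since the list was one of known targets, nothing is read from this share. *Nr6a1*, the germ cell nuclear factor that represses *Pou5f1* in the embryo, had 8 sites in its UTR, the most of any gene on the list. It had 13.9, 14.1, 10.5 and 11.2 CPM in cKO, against 9.15, 6.05, 6.95 and 6.76 CPM in CON (0.79, SE 0.15, edgeR adjusted p = 0.0255). Every cKO value lay above every CON value. *Myc*, which had 0 such sites, was lower, with 25.2, 23.6, 28.8 and 34.8 CPM in cKO, against 41.7, 46.2, 45.8 and 37.0 CPM in CON (-0.61, SE 0.12, 0.0277). The cyclin *Ccnd1* (-0.38, SE 0.07, 0.0245) and the mRNA-binding protein *Igf2bp2* (0.24, SE 0.06, 0.0384) changed by less than 1.5-fold, as did *Gab2* (0.20, SE 0.05, 0.0433). *Trim71*, a ubiquitin ligase of stem cells with 4 sites, had 11.3 CPM in cKO and 6.57 CPM in CON on average (0.78, SE 0.21, 0.0561) and did not pass. The other genes of the list with 4 sites were *Hmga2* (0.10, SE 0.16, edgeR adjusted p = 0.708) and *Igf2bp1* (-0.07, SE 0.16, 0.798). Whether the change followed the number of sites was not tested. *Gab2*, *Trim71*, *Hmga2* and *Igf2bp1* were named after their values were seen.

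The other AP-2 factors were at the edge of detection. *Tfap2b* had at most 0.259 CPM in any cKO library and 0.115 CPM in any CON library, *Tfap2d* had 0 counts, and *Tfap2e* averaged 0.830 CPM in cKO and 0.358 CPM in CON, below the count filter. *Tfap2a* and *Tfap2c* were thus the AP-2 genes of the family with enough counts for the fit. Of 5 tested partners of AP-2 factors, 1 was called. The coactivator *Cited1* had 8.08, 7.73, 8.98 and 7.54 CPM in cKO, against 5.54, 4.08, 5.84 and 3.90 CPM in CON, without overlap (0.75, SE 0.16, edgeR adjusted p = 0.0303). The coactivator *Cited2* had 0.16 (SE 0.09, 0.280), and the repressors *Kctd15* and *Kctd1* had -0.15 (SE 0.07, 0.168) and -0.20 (SE 0.13, 0.349). The median of the list was -0.15.

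Genes that induce primordial germ cells upstream of *Prdm1* and *Tfap2c*, or that work beside them, numbered 18, with 15 tested and a median of -0.05. The interferon-induced membrane protein *Ifitm1*, an early surface marker of germ cell precursors in the mouse embryo, was called lower, with 137, 119, 96.4 and 108 CPM in cKO, against 174, 189, 168 and 174 CPM in CON (-0.62, SE 0.10, edgeR adjusted p = 0.0141). *Ifitm3*, another member of its family, had 177 CPM in cKO and 259 CPM in CON on average (-0.55, SE 0.08, 0.0119), just under 1.5-fold. For both, all cKO libraries lay below all CON libraries. The ligand *Bmp4* (0.18, SE 0.07, 0.106) and its signal transducer *Smad1* (-0.20, SE 0.08, 0.129) did not pass.

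Of 25 pluripotency genes 18 were tested, with 2 called higher, 1 called lower and a median of 0.26. *Tcl1*, a coactivator of AKT that is abundant in oocytes, had 36.6, 30.9, 33.4 and 30.4 CPM in cKO, against 25.9, 18.4, 20.7 and 15.6 CPM in CON (0.71, SE 0.14, edgeR adjusted p = 0.0272). *Zfp42*, also called *Rex1*, had 2.25, 2.31, 2.20 and 1.38 CPM in cKO, against 1.31, 0.844, 0.935 and 0.802 CPM in CON (1.08, SE 0.26, 0.0403). Both were higher in every cKO library. *Sall1*, a paralogue of *Sall4* known from kidney mesenchyme, ran the other way, with 18.4, 22.9, 25.0 and 24.0 CPM in cKO, against 44.9, 60.6, 41.4 and 39.7 CPM in CON (-1.05, SE 0.15, 0.0119). *Dppa5a* had 0.55 (SE 0.17, 0.0804). *Nanog* had at most 0.346 CPM in cKO and 0.584 CPM in CON and was below the filter, as was *Sox2*.

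The last list held NANOS genes with their partners and genes for migration and survival of early germ cells. Of its 12 tested genes, 0 were called with edgeR, although 6 with a higher and 2 with a lower value in cKO had an unadjusted p under 0.05, and DESeq2 and limma-voom each called 1 higher, *Kit*. The median was 0.19. *Cxcr4*, the receptor that guides migrating germ cells and also serves blood and vessel cells, had an adjusted p under 0.05 at less than 1.5-fold (-0.57, SE 0.09, edgeR adjusted p = 0.0123). *Kit*, the receptor tyrosine kinase of germ cells and oocytes, averaged 199 CPM in cKO and 129 CPM in CON (0.63, SE 0.16, 0.0507). The germ cell genes *Stk31* (0.54, SE 0.17, 0.0749) and *Tex11* (0.53, SE 0.17, 0.0768) lay close to it. Their size was near the median of the oocyte markers, given above as 0.56.

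**Figure D4:**
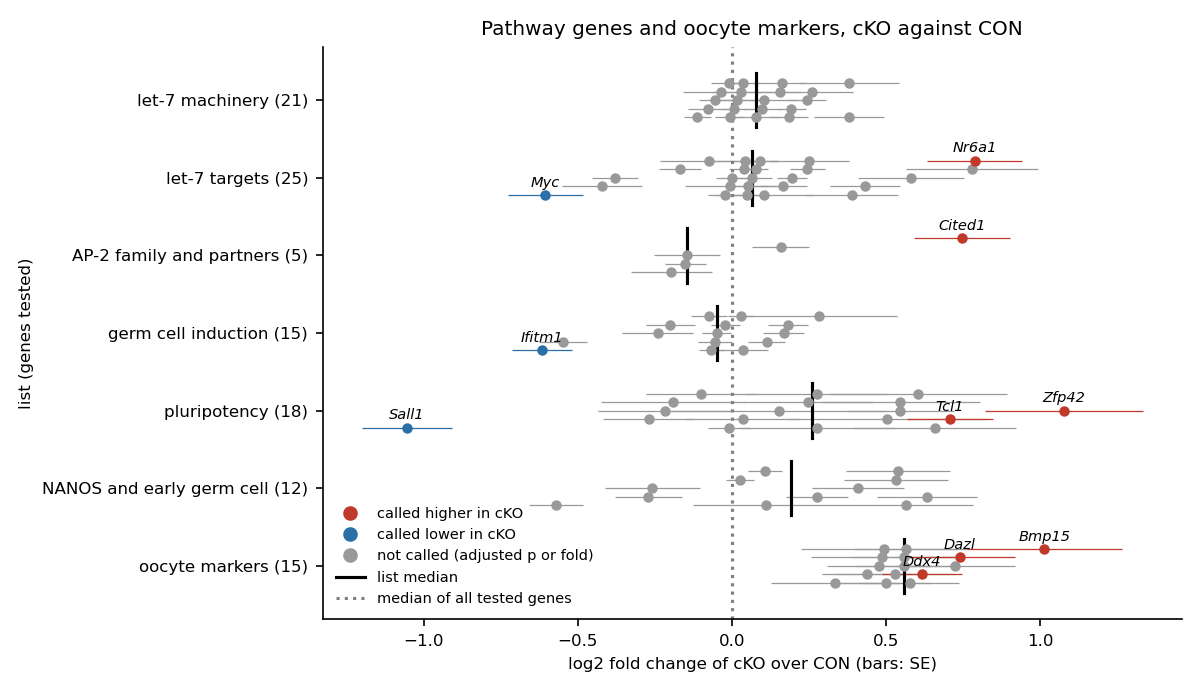
Log2 fold change of cKO over CON (horizontal axis, bars show SE) of every tested gene in 6 pathway lists and of the oocyte markers, with the number tested in brackets and list medians as black lines. Genes that met both the adjusted p and the 1.5-fold threshold are colored and named, 4 pathway genes higher and 3 lower, and all 15 oocyte markers lie right of 0.

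The nearest tested genes on both sides of each of the 10 loci were compared in the same fit, and 0 of 20 were called with edgeR, DESeq2 or limma-voom, and 4 of them, with 2 positive and 2 negative fold changes, had an unadjusted edgeR p under 0.05. Beside *Lin28b* lie *Bves* (-0.36, SE 0.35, edgeR adjusted p = 0.535) and *Hace1* (0.05, SE 0.07, 0.643), and beside *Tfap2a* lie *Slc35b3* (0.13, SE 0.08, 0.301) and *Gcnt2* (-0.07, SE 0.20, 0.852). The smallest adjusted p among the 20 was that of the glucose transporter *Slc2a3* beside *Dppa3* (-0.33, SE 0.07, 0.0376), at less than 1.5-fold and opposite in sign to *Dppa3*.

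Promoter windows, 250 bases before to 50 bases after a start site, were found in RefSeq for 6 of the 10 genes (8 windows). Letters of a form of the site that NR5A receptors bind, AAGGTCA on either strand, were in none of the 8, compared with 4.72% of 32851 windows of the same length. The longer form TCAAGGTCA, which contains the first, was in 0 of 8 and in 0.423% of all, and the octamer ATGCAAAT was in 0 of 8 and 1.74%. Other forms of the NR5A site were not searched. The AP-2 palindrome GCCNNNGGC was in 16.6% of all windows and in 1 window each of *Lin28a*, at 63 bases before the start site, *Nanos3* and *Pou5f1*. Nothing about the factors follows from these letters.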

How the data were processed

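RNA of whole PND4 ovaries was made into libraries with a stranded mRNA kit and read in pairs on an Illumina HiSeq4000. The authors removed reads of low quality, aligned the rest to GRCm38 (mm10) with STAR and deposited raw read counts per gene from featureCounts (versions, annotation and strand setting not given in the sources used here). A deposited table of the authors' own comparison, with fold changes and p-values, was not used. Columns were joined to a genotype only and numbered as in the table.

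Counts were fitted with the robust quasi-likelihood F test of edgeR 4.0.16 under R 4.3.3, after TMM scaling and the filter filterByExpr (minimum of 10 counts), for cKO against CON with no covariate, and p-values were adjusted by Benjamini-Hochberg over 15257 genes. The standard error (SE) was obtained by dividing each log2 fold change by the square root of its F. CPM are counts over the TMM-scaled library size, with scaling factors between 0.978 and 1.03, and correlations used log2 CPM with a prior count of 2. Symbols and positions came from RefSeq (99.7% of 24823 entries matched), exon lengths and UTRs from GENCODE. No libraries were alike within counting noise (smallest chi-square per gene 3.67). Intervals and limits cover counting error only, and PCR copies were not removed by molecular identifiers.

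The members and lists were chosen with earlier results of these data known. Named were all members, up to 4 genes with the smallest p and any called gene of each pathway list and the oocyte markers, 5 genes of most similar pattern, and flanking genes. The most abundant oocyte markers are named for their weight in the sum. Genes of other marker lists are given as sums only. Scripts were tested on simulated data. Alternatives were other scalings, count filters, DESeq2 1.42.0, limma-voom (limma 3.58.1), no fold threshold and left-out libraries.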

Additional observations from a re-analysis of the deposited data

Results flagged for a closer look

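In 84 groups of 4 libraries (1 gene in 1 genotype), the gap between an extreme library and its nearest neighbour was compared with the whole range. Chance sets apart about 1 group in 20, and 5 stood out, none of them a group of *Lin28a*, *Lin28b*, *Tfap2a* or the other germ line factors of the set. *Ago1* had 153 CPM in cKO 1, where the next library had 134 CPM. *Ifitm3* had 206 CPM in cKO 1, with 172 CPM in the next. *Zfp42* had 1.38 CPM in cKO 4, with 2.20 CPM in the next. *Dazl* had 52.1 CPM in cKO 2, with 34.2 CPM in the next. *Bmp15* had 2.25 CPM in CON 1, with 1.69 CPM in the next.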

How the results depend on the processing

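No member changed sign under any alternative, and the range of each log2 fold change was 1.20 to 1.80 for *Lin28b*, 1.30 to 1.86 for *Tfap2a*, 0.67 to 1.04 for *Sall4*, 0.13 to 0.83 for *Lin28a*, 0.17 to 0.58 for *Nanos3*, 0.32 to 0.68 for *Dppa3*, 0.33 to 0.87 for *Pou5f1*, -1.22 to -0.73 for *Tfap2c* and -1.01 to -0.57 for *Prdm1*. Calls depended on the libraries. In place of 136 genes higher and 79 lower in cKO, DESeq2 gave 254 and 178, limma-voom with quality weights 302 and 214, and no fold threshold 555 and 501. Without cKO 1 and cKO 2 there were 61 and 157, and without CON 1 and CON 3 there were 55 and 14. With 1 library left out the counts ran from 0 to 322 higher and from 0 to 105 lower. Both were 0 with edgeR without CON 2 (1749 and 1565 before adjustment) and without CON 3 (1771 and 1488), where DESeq2 was not run. Of the pathway lists, 4 higher and 3 lower became 8 and 6 without the fold threshold, 1 and 5 without cKO 1 and cKO 2, 2 higher without CON 1 and CON 3, and 1 lower with scaling by library size only, and ran from 0 to 10 higher and from 0 to 4 lower with 1 library left out. The cause was not tested. The motif shares were 2.52% for AAGGTCA, 0.240% for TCAAGGTCA and 0.877% for ATGCAAAT on 1 strand only.

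No paired analysis was possible because the genotypes share no replicate numbers in the labels and the count columns name a genotype, not a single sample. Depth limits *Lin28b*, *Tfap2a*, *Tfap2c* and *Nanos3* most, each of them with at most 201 counts summed over the 4 libraries of a genotype.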
